A study of Homo sapiens with 4 samples.

Results

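The aryl hydrocarbon receptor pathway was followed through 7 genes, AHR, AHRR, ARNT, CYP1A1, CYP1B1, TIPARP and NEBL, taken by symbol from a table of read counts for 58735 genes. All 7 symbols were found once, and all 7 were among the 15817 genes with enough counts to be tested. The samples were 4 RNA preparations of HCC1954, an established human breast cancer cell line with an amplified ERBB2 gene. A pair of samples carried a scrambled control hairpin (shCON 1 and shCON 2), and the other pair carried a hairpin against ZDHHC15, a palmitoyltransferase (shZDHHC15 1 and shZDHHC15 2). The samples received no other agent, and the hairpins came as GIPZ lentiviral plasmids. The labels call the knockdown stable in one field and describe a transient transfection with harvest after 36 h in another. They do not say whether the numbers stand for separate cultures or separate hairpins, so the p-values measure only the spread between these samples, which may be technical.

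AHR is a transcription factor of the basic helix-loop-helix and PAS family that waits in the cytoplasm with the chaperone HSP90 until a ligand binds it. Its ligands include dioxins, polycyclic hydrocarbons and products of tryptophan breakdown. The bound receptor enters the nucleus, pairs with ARNT and binds the xenobiotic response element, whose core is GCGTG, in front of genes such as CYP1A1 and CYP1B1. AHRR and TIPARP are induced by the receptor and in turn repress it, so they form its feedback arm. In breast cells the pathway is known for the metabolism of polycyclic hydrocarbons and of estradiol by the CYP1 enzymes.

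The counts summed to between 17560982 and 19118704 per sample, and between 23153 and 24773 genes had at least 1 count. ZDHHC15 received 17617 and 15716 counts in shCON cells and 0 in both shZDHHC15 samples. Against a floor of 3 counts per library it was at least 5743-fold lower. What led to 0 counts in both shZDHHC15 samples was not tested. Levels are given as CPM, the count scaled to a common library total with TMM factors. The groups were compared with the quasi-likelihood test of edgeR, and p-values were adjusted over all tested genes by the Benjamini-Hochberg method. A gene was called at an adjusted p under 0.05. Sums over markers used the library totals without TMM factors. The epithelial markers EPCAM, CDH1, KRT8, KRT18, KRT19 and ERBB2 were all present. Their sum was between 13409 and 14034 CPM in shCON cells and between 8173 and 8179 CPM in shZDHHC15 cells. KRT8 (6058 ± 401 and 1969 ± 163 CPM, SD, n = 2) and KRT18 (1642 ± 103 and 548 ± 49.5 CPM) made up most of that difference. EPCAM and ERBB2 were also called lower, KRT19 was called higher and CDH1 was not called. Of 4 leukocyte markers, CD3E had 0 counts in all samples, which allows up to 3 counts, PTPRC had at most 4, and the list summed to between 0.342 and 1.59 CPM. CD14 was called higher. The 4 fibroblast markers summed to between 5.46 and 6.83 CPM in shCON cells and between 8.58 and 11.8 CPM in shZDHHC15 cells, with COL1A1 called higher, LUM at 0 counts in all samples and DCN and PDGFRB at no more than 3. The 3 endothelial markers summed to between 47.7 and 48.0 CPM in shCON cells and between 99.3 and 103.9 CPM in shZDHHC15 cells, with PECAM1 and CDH5 called higher and VWF at no more than 7 counts. Whether these shifts had a part in the results below was not tested.

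In ZDHHC15-depleted cells the receptor transcript itself did not differ detectably, its partner ARNT and the enzyme gene CYP1B1 rose, and the repressor gene AHRR fell. CYP1A1, TIPARP and NEBL did not pass the test. Of the 7 genes, 2 were called higher and 1 lower, where 21.7% of all tested genes were called higher and 20.3% lower (42.0% in either direction). The share of called genes among the 7 was therefore near that of all genes. The CPM of the groups did not overlap for 6 of the 7, where the same held for 72.5% of all tested genes. The median log2 fold change of the 7 was -0.02, and that of all tested genes was 0.02. In bulk RNA, fewer cells that express a gene and less of its RNA per cell cannot be told apart.

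**Figure D1:**
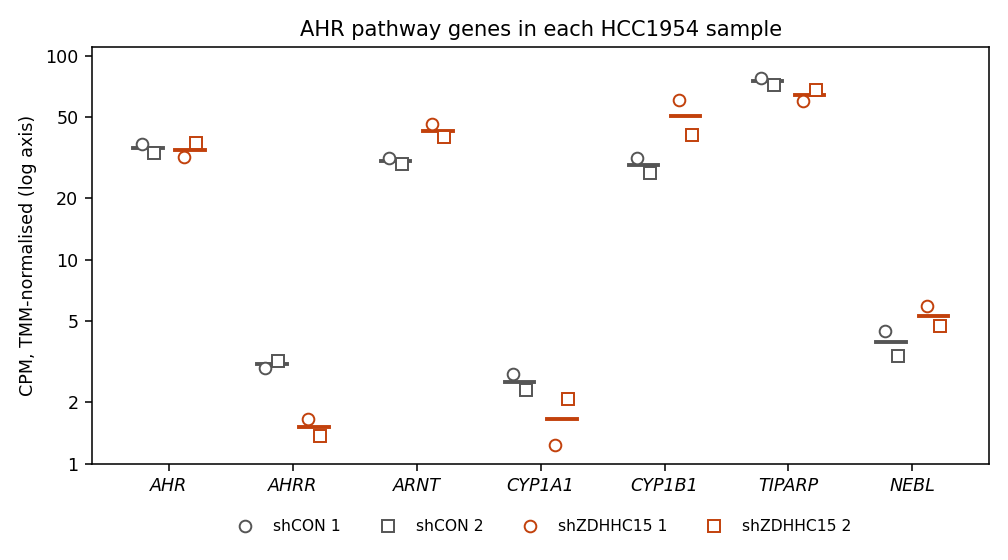
CPM on a log axis for the 7 AHR pathway genes in each of the 4 samples. Circles are sample 1 and squares sample 2 of each group, and the short bars are group means (n = 2). ARNT and CYP1B1 lie higher and AHRR lower in both shZDHHC15 samples, while the AHR samples of the groups overlap.

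AHR, the ligand-binding receptor, is annotated on chromosome 7 from 16916359 to 17346152 on the plus strand of GRCh38 (ENSG00000106546). It received 676 and 561 counts in shCON cells and 591 and 735 counts in shZDHHC15 cells, which is 37.1 and 33.3 CPM against 31.7 and 37.4 CPM. The shZDHHC15 samples lie on both sides of the shCON samples. The means were 35.2 ± 2.70 and 34.6 ± 4.03 CPM (SD, n = 2), and the log2 fold change of -0.02 had a 95% interval from -0.29 to 0.24 (edgeR's quasi-likelihood test, adjusted p = 0.899). Its sign changed with library size as the only scaling and without shCON replicate 1 or shZDHHC15 replicate 1. Of its 8081 exonic bases, 2373 are shared with the same-strand gene AC019117.2, which had 0 counts, and 270 with an antisense gene, AC073332.1, which had 4 to 14 counts.

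ARNT, the nuclear partner that AHR needs to bind DNA and that also pairs with the hypoxia factors, lies on chromosome 1 from 150809705 to 150876768 on the minus strand (ENSG00000143437). It received 574 and 495 counts in shCON cells and 858 and 781 in shZDHHC15 cells, or 31.5 and 29.3 CPM against 46.1 and 39.8 CPM. Both shZDHHC15 samples were above both shCON samples. The rise was 1.41-fold (log2 fold change 0.50 with a standard error of 0.119 and adjusted p = 0.00391 by edgeR's quasi-likelihood test). Without shZDHHC15 replicate 1 the log2 fold change was 0.39 and the call was lost (adjusted p = 0.0702). Scaled to length, the level of AHR divided by that of ARNT was 0.950 and 0.914 in the shCON samples and 0.555 and 0.759 in the shZDHHC15 samples. This ratio was lower in both shZDHHC15 samples. AHR was divided by all its 8081 bases, of which 2373 are shared with AC019117.2. How reads in shared bases were counted is not known, so the AHR levels per length may be too low here and below.

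AHRR, a relative of AHR that lacks its activating region and competes with it for ARNT, lies on chromosome 5 from 304176 to 438291 on the plus strand (ENSG00000063438). It received 54 and 54 counts in shCON cells and 31 and 27 in shZDHHC15 cells, or 2.96 and 3.20 CPM against 1.66 and 1.38 CPM. The gene was weakly expressed in all samples and the groups did not overlap. The log2 fold change was -1.02 (standard error 0.298), a level 2.02-fold lower in shZDHHC15 cells, with an adjusted p of 0.0128 by edgeR's quasi-likelihood test. The DESeq2 Wald test gave -1.03 with an adjusted p of 0.0664, and without shZDHHC15 replicate 2 the value was -0.89 with an adjusted p of 0.0739, so the call did not hold in either. Of its 7678 exonic bases, 244 are shared with PDCD6, a same-strand gene that received between 3014 and 3523 counts. Per length, AHR stood 11.9 and 9.87 times above AHRR in the shCON samples and 18.1 and 25.9 times above it in the shZDHHC15 samples.

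TIPARP, also called PARP7, encodes a mono-ADP-ribosyltransferase that modifies AHR and limits its activity. It lies on chromosome 3 from 156673235 to 156706770 on the plus strand (ENSG00000163659) and was the most abundant of the 7 genes per length. It received 1412 and 1220 counts in shCON cells and 1116 and 1336 in shZDHHC15 cells, or 77.5 and 72.3 CPM against 59.9 and 68.1 CPM. Both shZDHHC15 samples were below both shCON samples, by a margin that did not pass the test. The log2 fold change of -0.23 had a 95% interval from -0.45 to -0.00089 before adjustment, and edgeR's quasi-likelihood test gave an adjusted p of 0.0999. Without shCON replicate 2 it was -0.29 and passed (adjusted p = 0.0434), and without shZDHHC15 replicate 1 it was -0.14 (adjusted p = 0.539). An antisense neighbour, TIPARP-AS1, shares 37 of its 5048 exonic bases.

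CYP1A1 is the classical readout of the ligand-bound receptor and encodes a cytochrome P450 that oxidises polycyclic hydrocarbons. It lies on chromosome 15 from 74719542 to 74725610 on the minus strand (ENSG00000140465). It received only 50 and 39 counts in shCON cells and 23 and 41 in shZDHHC15 cells, or 2.74 and 2.31 CPM against 1.24 and 2.09 CPM. Both shZDHHC15 samples were below both shCON samples, but shZDHHC15 2 was close to shCON 2. The log2 fold change was -0.60 with a 95% interval from -1.30 to 0.10 (adjusted p = 0.159 by edgeR's quasi-likelihood test). It was -0.28 without shZDHHC15 replicate 1 and -1.04 without shZDHHC15 replicate 2, and neither passed the test. Its neighbour and relative CYP1A2 had 2 counts in 1 shCON sample and 0 in the others.

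CYP1B1, the enzyme of the family that is common outside the liver and hydroxylates estradiol, lies on chromosome 2 from 38066973 to 38109902 on the minus strand (ENSG00000138061). It received 578 and 447 counts in shCON cells and 1132 and 803 in shZDHHC15 cells, or 31.7 and 26.5 CPM against 60.8 and 40.9 CPM. Both shZDHHC15 samples were above both shCON samples, with shZDHHC15 1 well above shZDHHC15 2. The rise was 1.74-fold (log2 fold change 0.80 with a standard error of 0.161, adjusted p = 0.0011 by edgeR's quasi-likelihood test) and was the largest among the 7 genes. It was 0.49 without shZDHHC15 replicate 1 and 1.06 without shZDHHC15 replicate 2, and passed in both. CYP1B1-AS1, which runs against it over 678 of its 6014 exonic bases, had 12 to 27 counts, and the sources used here do not state whether counting used the strand. Per length, CYP1B1 stood 6.60 and 6.55 times above CYP1A1 in the shCON samples and 28.1 and 11.2 times above it in the shZDHHC15 samples.

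NEBL encodes nebulette, an actin-binding protein of the nebulin family, and stands in the list as a gene linked to the receptor rather than as a part of its machinery. It lies on chromosome 10 from 20779973 to 21174187 on the minus strand (ENSG00000078114). It received 82 and 57 counts in shCON cells and 110 and 93 in shZDHHC15 cells, or 4.50 and 3.38 CPM against 5.91 and 4.74 CPM. Both shZDHHC15 samples were above both shCON samples, although shZDHHC15 2 exceeded shCON 1 only slightly. The log2 fold change of 0.42 had a 95% interval from -0.08 to 0.93 (adjusted p = 0.166 by edgeR's quasi-likelihood test), and it ranged from 0.23 to 0.62 when single samples were left out.

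**Figure D2:**
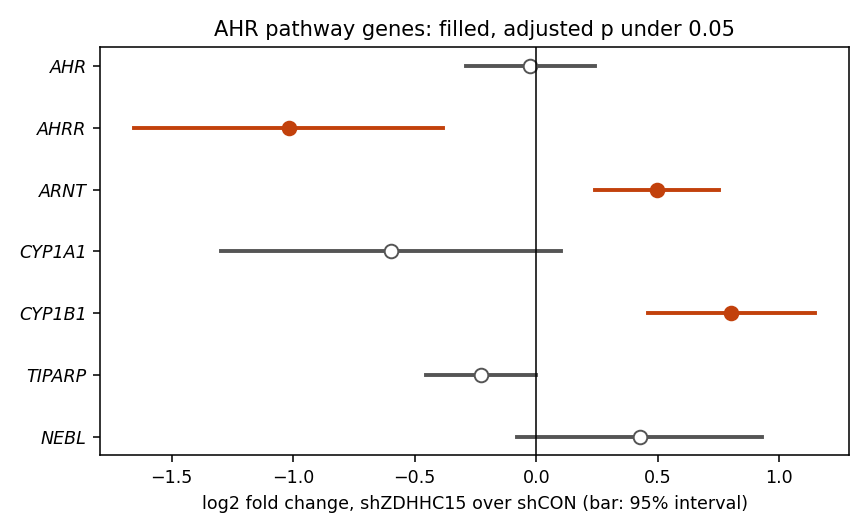
Log2 fold change of shZDHHC15 over shCON for the 7 genes, with 95% intervals from edgeR's quasi-likelihood fit (2 samples per group). Filled points passed an adjusted p of 0.05. The intervals of ARNT and CYP1B1 lie above 0 and that of AHRR below it. That of TIPARP, taken before adjustment, also ends just below 0, at -0.00089, but its point is not filled. The intervals of AHR, CYP1A1 and NEBL span 0.

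The order of the 7 genes by CPM per kilobase of gene length was TIPARP, CYP1B1, ARNT, AHR, CYP1A1, AHRR and NEBL in shCON cells, with means of 14.8, 4.84, 4.67, 4.35, 0.736, 0.401 and 0.288. TIPARP stood clear of the rest, and CYP1A1, AHRR and NEBL stood clear of the middle group. Within that group the neighbours overlapped in shCON cells, since CYP1B1 spanned 4.41 to 5.27, ARNT 4.50 to 4.83 and AHR 4.12 to 4.59. In shZDHHC15 cells the means were 12.7, 8.46, 6.59, 4.28, 0.484, 0.198 and 0.390 for the same genes in the same sequence. AHR no longer overlapped ARNT or CYP1B1 there, and AHRR took the last place below NEBL. Among all tested genes, the shCON level of AHR stood at the 54.3 percentile, that of TIPARP at the 78.7 percentile and that of CYP1A1 at the 21.9 percentile. The place of AHR carries the limit of its shared bases given above.

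To show where the receptor could bind near the start sites, the promoters of its feedback genes and of CYP1A1 were read from RefSeq (GRCh38.p14), from 250 bases before to 50 bases after a start. Of the 7 genes, 6 had an entry, in 13 windows in all, and CYP1B1 had none. Each window was searched on both strands for the core GCGTG and for the longer TNGCGTG, which contains it. The core occurs in 36.5% and the longer form in 5.51% of all 35116 windows of that length in the table. In the sequences, written 5′ to 3′ along the gene, capitals mark the core or, in AHRR, the longer form.
AHRR, chr5:321464-321763, plus strand: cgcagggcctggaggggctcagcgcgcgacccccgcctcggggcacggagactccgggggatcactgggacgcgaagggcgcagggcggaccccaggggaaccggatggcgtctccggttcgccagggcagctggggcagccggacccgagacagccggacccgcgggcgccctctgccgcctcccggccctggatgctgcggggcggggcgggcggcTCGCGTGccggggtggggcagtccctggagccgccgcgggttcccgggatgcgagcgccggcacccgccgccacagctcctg
CYP1A1, chr15:74725479-74725778, minus strand: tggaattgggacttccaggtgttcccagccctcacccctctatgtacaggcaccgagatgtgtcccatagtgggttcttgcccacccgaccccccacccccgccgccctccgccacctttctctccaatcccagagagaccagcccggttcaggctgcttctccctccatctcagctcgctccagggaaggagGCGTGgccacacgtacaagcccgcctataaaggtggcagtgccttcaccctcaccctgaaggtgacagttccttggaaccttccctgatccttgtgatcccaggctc
TIPARP, chr3:156674340-156674639, plus strand: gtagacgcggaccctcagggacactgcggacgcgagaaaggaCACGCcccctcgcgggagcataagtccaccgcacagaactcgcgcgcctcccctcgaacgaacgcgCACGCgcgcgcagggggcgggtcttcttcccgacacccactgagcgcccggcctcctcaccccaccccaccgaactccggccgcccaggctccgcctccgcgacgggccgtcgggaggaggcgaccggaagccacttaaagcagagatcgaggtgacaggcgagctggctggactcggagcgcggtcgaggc

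The core began 30 bases before the start in AHRR, 57 bases before it in CYP1A1, and 208 and 142 bases before it, on the opposite strand, in TIPARP. The longer form was found in 1 of the 13 windows, that of AHRR shown above. AHR held 1 core at position 38 after its start, the second AHRR window 2, and 1 of the 5 NEBL windows 1, while the ARNT window, the other 4 NEBL windows and the other 2 of the 3 TIPARP windows held none. Of the 3 genes shown, AHRR was called lower in ZDHHC15-depleted cells and CYP1A1 and TIPARP were not called. A match is a string of letters and not a measured binding site, and enhancers farther upstream, which carry most of the known elements of CYP1A1, lie outside these windows.

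The cytoplasmic holding complex keeps AHR ready for its ligand. Of 7 genes for the chaperones and for turnover of AHR, 3 were called lower and 0 higher by edgeR, 2 were higher at an unadjusted p under 0.05, and the DESeq2 Wald test called 0 higher. With the replicate number as a block 2 were called higher, as with library size as the only scaling, and 1 was when at least 10 counts were asked of every sample or without shCON replicate 2. Among all tested genes 20.3% were called lower, 21.7% higher and 42.0% in either direction. The 3 called of 7 were near the share called in either direction, but all 3 were lower. The median log2 fold change was -0.07. STUB1, a ubiquitin ligase that acts with HSP90, had a log2 fold change of -0.50 (standard error 0.112) and was called lower (adjusted p = 0.00217), and JMJD8 runs against 983 of its 2316 exonic bases. PTGES3, the p23 co-chaperone, named here after its value was seen, fell by 0.36 (adjusted p = 0.00413, or 0.0514 without shZDHHC15 replicate 1) and has a near-identical pseudogene. HSP90AA1 and HSP90AB1, which encode the chaperone itself, had log2 fold changes of -0.07 and 0.19 and were not called in the fit without the block.

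The other factors with the same helix-loop-helix and PAS architecture, several of which share ARNT, were called about as often as all tested genes. Of 13 genes, 9 were tested, with 2 higher, 2 lower and a median of 0.11, beside 21.7% higher and 20.3% lower among all tested genes. EPAS1, which encodes the hypoxia factor HIF-2α, fell from 145 and 141 CPM to 81.0 and 78.2 CPM (log2 fold change -0.85 with a standard error of 0.0947, adjusted p = 6.48e-06). HIF1A, its relative, rose from 293 and 230 CPM to 403 and 423 CPM (log2 fold change 0.66 with a standard error of 0.108, adjusted p = 2.19e-04). In both genes all samples of a group lay on one side of the other group. NPAS1 fell from 2.19 and 2.43 CPM to 0.698 and 0.713 CPM (log2 fold change -1.70, adjusted p = 0.00186). The clock gene ARNTL rose by 0.44 (adjusted p = 0.0357), a call lost with the DESeq2 Wald test (adjusted p = 0.117), when low counts were kept, and without shCON replicate 2 or shZDHHC15 replicate 1. HIF1A and ARNTL were named after their values were seen.

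Genes for nuclear coregulators and partner factors of AHR were mostly higher. All 13 were tested, 11 were called higher and 2 lower, where 21.7% and 20.3% of all tested genes were. The median log2 fold change was 0.83, beside 0.02 for all tested genes. NCOA2, a coactivator that binds AHR and ARNT, had 21.5 and 14.5 CPM in shCON cells and 44.5 and 31.2 CPM in shZDHHC15 cells (log2 fold change 1.07 with a standard error of 0.184, adjusted p = 3.27e-04). ESR1, the estrogen receptor that cross-talks with AHR, rose from 8.83 and 6.11 CPM to 16.5 and 15.5 CPM (log2 fold change 1.09 with a standard error of 0.180, adjusted p = 2.13e-04), a level that stayed low. A same-strand gene, AL078582.1, shares 135 of the 13854 exonic bases of ESR1. Its own counts were 69 and 42 in shCON cells and 77 and 96 in shZDHHC15 cells. The corepressor gene NCOR1 and the acetyltransferase genes EP300 and CREBBP were among those called higher, so the list did not divide into activators and repressors. The lower genes were KLF6, a zinc finger factor that can pair with AHR, which fell by 1.07 (standard error 0.109, adjusted p = 2.73e-06), and RELB, an NF-kappaB subunit, which fell by 0.30 (adjusted p = 0.0266). RELB was not called with library size only (adjusted p = 0.0868), when low counts were kept (adjusted p = 0.0747) or without shZDHHC15 replicate 1 (adjusted p = 0.301). CREBBP, NCOR1 and SP1 were lost in 1 or more of the alternatives, and between 9 and 11 genes were called higher when single samples were left out.

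Gene length moved with these fold changes. Among tested protein-coding genes, the quintile with the shortest gene models (up to 2923 bases) had its median log2 fold change at -0.24, and 12.2% were called higher and 37.4% lower. The quintile with the longest (from 8307 bases) had a median of 0.28, with 41.7% called higher and 9.18% lower. Of the 13 coregulator genes, 9 lay in the longest quintile and their median length was 8633 bases, while STUB1 lay in the shortest quintile. ARNT, CYP1B1, AHRR and AHR all lay in the fourth quintile (5962 to 8306 bases), whose median was 0.10, with 27.6% called higher and 16.1% lower. CYP1A1 lay in the second quintile (median -0.08), TIPARP in the third (median 0.02) and NEBL in the longest. The part of length in each gene's change was not tested.

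Other genes that the receptor is known to induce were called in both directions. Of 20 listed target genes, 17 were tested, 7 were called higher, 7 lower and 3 not called, beside 21.7% higher and 20.3% lower among all tested genes. Their median log2 fold change was 0.27. XDH, which encodes xanthine dehydrogenase, rose most, from 27.0 and 24.6 CPM to 196 and 161 CPM (log2 fold change 2.79 with a standard error of 0.121, adjusted p = 2.21e-10). PTGS2, the inducible cyclooxygenase gene, rose from 32.7 and 29.2 CPM to 182 and 170.2 CPM (log2 fold change 2.51 with a standard error of 0.107, adjusted p = 1.98e-10). In both genes the lowest shZDHHC15 sample was several times above the highest shCON sample. The cytokine gene IL1B rose by 1.91 (adjusted p = 2.84e-05) from 49 and 56 counts, the guanine exchange factor gene VAV3 by 1.31 (adjusted p = 6.07e-04, and 0.87 without shZDHHC15 replicate 1), and UGT1A1 by 1.59 (adjusted p = 2.81e-04). UGT1A1, which glucuronidates bilirubin and drugs, shares 1649 exonic bases with UGT1A6, 2227 with UGT1A10 and 1478 with UGT1A7. UGT1A10 went from 1 and 5 counts to 43 and 49, and UGT1A7 from 4 and 3 to 27 and 18. Counts may be split among the UGT1A genes, so the rise may not be particular to UGT1A1. NQO1, a quinone reductase gene under AHR and NRF2, named after its value was seen, had 254 and 267 CPM in shCON cells and 491 and 460.2 CPM in shZDHHC15 cells, a 1.83-fold rise (log2 fold change 0.87 with a standard error of 0.0889, adjusted p = 2.66e-06).

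The 7 target genes called lower were CYP2S1, ABCG2, SLC7A5, HES1, SERPINB2, STC2 and NEDD9, with log2 fold changes between -0.96 and -0.42, all named as a full count rather than by size. SERPINB2, a plasminogen activator inhibitor gene, was lowest at -0.96 (standard error 0.18, adjusted p = 6.19e-04), and it moved between -1.43 and -0.62 when single samples were left out. ABCG2, a drug efflux pump gene, was not called without shZDHHC15 replicate 1 (adjusted p = 0.0702). NFE2L2, EREG and GSTA1 were tested and not called. ALDH3A1 and GSTA2, standard markers of AHR activity in other tissues, had between 0 and 9 counts per sample and were not tested, like CYP1A2.

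**Figure D3:**
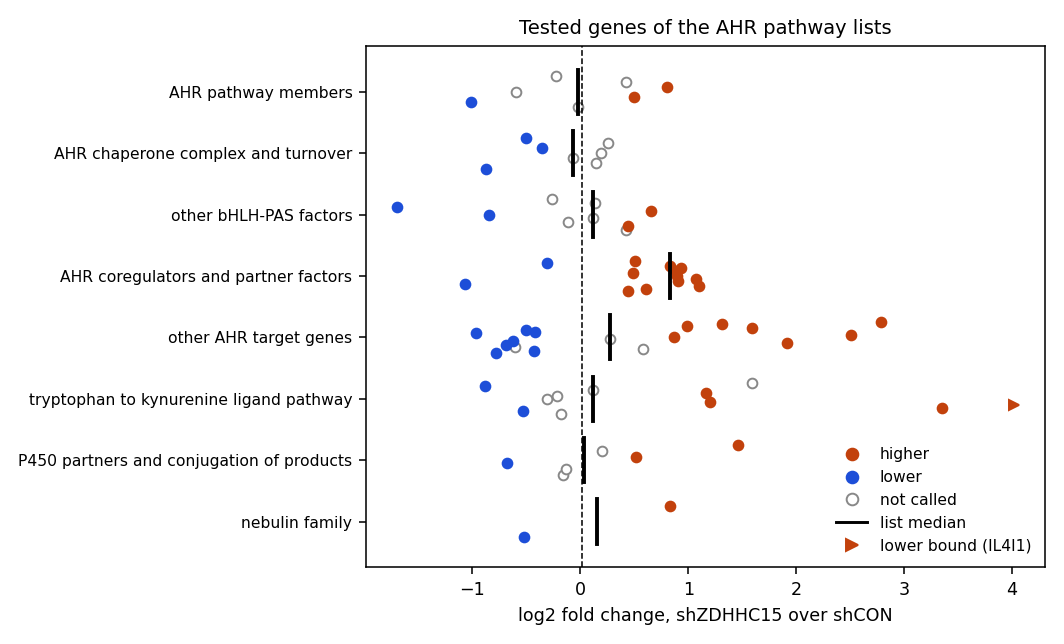
Log2 fold change of shZDHHC15 over shCON for each tested gene of the 8 lists, coloured by call at an adjusted p of 0.05. Black bars are list medians and the dashed line is the median of all tested genes (0.02). Coregulators gather to the right of the line, while the target genes spread to both sides, and IL4I1 is drawn at its lower bound.

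The pathway that makes kynurenine ligands from tryptophan held the largest rises around the receptor. Of 13 genes, 11 were tested, 4 were called higher and 2 lower, beside 21.7% and 20.3% of all tested genes, and the median was 0.11, also with IL4I1 at its bound. IDO1, which opens the tryptophan ring, rose from 9.98 and 10.02 CPM to 123 and 81.1 CPM, a 10.2-fold rise (log2 fold change 3.35 with a standard error of 0.181, adjusted p = 2.56e-09). IL4I1, a secreted enzyme that makes AHR ligands from aromatic amino acids, had 0 and 2 counts in shCON cells and 45 and 56 in shZDHHC15 cells, at least 16.2-fold higher against the floor of 3 counts per library, and 336 of its 2563 exonic bases are shared with NUP62. KYNU and KMO, which process kynurenine further, rose by 1.17 (standard error 0.0919, adjusted p = 1.71e-07) and 1.20 (standard error 0.133, adjusted p = 5.73e-06), with no overlap between groups. OPN3 runs against 1691 of the 5946 exonic bases of KMO and its own counts went from 153 and 160 to 339 and 341. The lower genes, named after their values were seen, were SLC3A2, the heavy chain of the amino acid exchanger that exports glutamine for large amino acids, which fell by 0.89 (adjusted p = 3.46e-06), and AFMID, which makes kynurenine from its formyl form and fell by 0.53 (adjusted p = 0.00769, or 0.1 without shZDHHC15 replicate 1). TDO2, the liver form of the first enzyme, had 8 and 1 counts against 18 and 12 and was not called (adjusted p = 0.0677).

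Of 7 genes for partners of the P450 enzymes and for handling of their products, 6 were tested, 2 were higher and 1 lower, near the 42.0% of all tested genes called in either direction, and the median was 0.04. POR, the reductase that feeds electrons to CYP1A1 and CYP1B1, had 132 ± 10.0 CPM in shCON cells and 152 ± 12.7 CPM in shZDHHC15 cells (SD, n = 2) and was not called (log2 fold change 0.20, adjusted p = 0.121). SULT1A1, a phenol sulfotransferase gene, rose by 1.46 (standard error 0.295, adjusted p = 0.00113) from 23 and 25 counts, although near-identical SULT1A genes could share its reads. EPHX1, which hydrolyses epoxides made by the CYP1 enzymes, rose by 0.51 (adjusted p = 7.56e-04), a gene named after its value was seen. CYB5R3, a cytochrome b5 reductase gene, fell by 0.68 (standard error 0.095, adjusted p = 5.05e-05). GSTP1 had 0 counts in all samples. Of the relatives of NEBL, LASP1 fell by 0.52 (standard error 0.0858, adjusted p = 2.28e-04), NEB rose by 0.83 from 39 and 29 counts to 66 and 66 (adjusted p = 0.0262), and NRAP was not tested. RIF1 runs against 166 of the 30567 exonic bases of NEB, and its own counts went from 2020 and 1122 to 2890 and 3000. The call of NEB was lost with the DESeq2 Wald test (adjusted p = 0.124), when low counts were kept (adjusted p = 0.0616) and without 3 of the 4 samples in turn.

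The genes most like each of the 7 were sought among abundant protein-coding genes, as the nearest by Euclidean distance of centred log2 CPM over the 4 samples. A small constant was added to each CPM before the log, which narrows the changes of weakly expressed genes in this distance. With only 4 samples that share their libraries, such a distance describes these libraries alone. The nearest to AHR were SKA3 (distance 0.0278) and DDX21 (0.0495), which like AHR overlapped between groups. ARNT was nearest to ZC3H4 (0.0213) and POGZ (0.0286), CYP1B1 to NEO1 (0.151) and WDFY3 (0.165), and AHRR to CPPED1 (0.0311) and SCD5 (0.0598). TIPARP was nearest to WDR3 (0.0276) and CCDC50 (0.0326), NEBL to TRIM2 (0.0212) and C22orf46 (0.0234), and CYP1A1 to PDCD1LG2 (0.0823) and NABP1 (0.137). CPPED1 and SCD5 had log2 fold changes of -0.82 and -0.87, smaller falls than the -1.02 of AHRR. PDCD1LG2 and NABP1 had -0.43 and -0.39, smaller falls than the -0.60 of CYP1A1. The distance was largest for CYP1A1 and CYP1B1, whose shZDHHC15 samples differed most from each other.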

How the data were processed

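RNA of HCC1954 cells was sequenced for the authors by Novogene from NEBNext Ultra libraries in 2 shCON and 2 shZDHHC15 samples. The authors deposited raw counts of reads per gene, not normalized, with gene length in bases as the other column used. Per the labels, the submitters' processing notes name HISAT2, StringTie, SAMtools and build hg38, while the counting tool, its annotation and any strand setting are not given in the sources used here. All 58735 genes matched GENCODE release 29 (GRCh38) in identifier, symbol, start and end, so its exons were used for overlaps. Groups came from the sample titles, and the number of unused per-sample columns was 0.

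Genes passing filterByExpr (15817) were tested with edgeR 4.0.16 in R 4.3.3 (TMM factors, glmQLFit with legacy = FALSE, glmQLFTest, group as the only term) with Benjamini-Hochberg adjustment. Standard errors came from the fold change and F statistic. CPM used TMM-scaled library sizes, while bounds against 3 counts and sums over markers used the library totals. The floor covers counting error only. Between samples of one group, the chi-square statistic per degree of freedom was 8.32 (shCON) and 6.79 (shZDHHC15), so they were kept as separate samples. The fit was tested on simulated data. Near-identical stretches were at least 150 bases at 97% identity or more between annotated transcripts.

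The 7 genes and all lists were chosen with earlier results of these data known, the lists from general knowledge. Named genes were the 7, ZDHHC15, the markers, the neighbours and nearest genes (2 for each of the 7, with a mean of at least 500 counts), and in each list the genes called at an adjusted p under 0.05 with no overlap and an absolute log2 fold change above 1, or the 2 largest changes where fewer than 2 met this. Quintiles of gene length were added after seeing the data. Alternatives were 3 other scalings (size factors of DESeq2 1.42.0, library size alone and upper quartiles), the Wald test of DESeq2, 2 other filters (none, or at least 10 counts in every sample), a replicate block, and leaving out each sample. With a sample left out, the lone sample of its group is assumed to vary like the other group. Some genes of the lists are not reported here by name.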

Additional observations from a re-analysis of the deposited data

How the results depend on the processing

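Under the 7 alternatives other than leaving out a sample, CYP1B1 and ARNT stayed called (log2 fold changes 0.77 to 0.88 and 0.46 to 0.57), AHRR was lost with the DESeq2 Wald test, and CYP1A1, TIPARP, NEBL and AHR stayed uncalled. The log2 fold change of AHR was 0.050 with library size only and between -0.15 and 0.088 with each sample left out, with the sign also turned without shCON replicate 1 (0.027), and none of these values was called. Genes called higher among the 7 numbered 1 to 2 with each sample left out, and genes called lower 0 to 2, or 0 with the DESeq2 Wald test. Over all genes, 2282 were called higher with no filter on low counts, where 30168 genes were tested in place of 15817, and the counts moved by less than 1.5 times under the other alternatives. ZDHHC15 had no value with at least 10 counts in every sample. In the chaperone list, 2 genes were called higher with library size only, 2 with the replicate block, 1 with at least 10 counts in every sample, and 0 to 1 with each sample left out. In the helix-loop-helix list, 1 was called higher with the DESeq2 Wald test and 1 with no filter (1 to 3 with a sample left out). In the coregulator list, 1 was called lower with library size only and 1 with no filter (1 to 2). The kynurenine list had 1 to 2 lower and the P450 partner list 1 to 2 lower with a sample left out. The nebulin list had 0 higher with the DESeq2 Wald test and 0 with no filter (0 to 1). The causes of these moves were not tested. Within-group differences of samples 1 and 2 correlated between the groups at r = 0.179 across 10687 genes, and with only 2 numbers this does not show pairing. With the replicate block 3723 genes were called higher and 3502 lower, and the calls of the 7 genes were as without it (CYP1B1 0.79, ARNT 0.50, AHRR -1.02). AHRR, CYP1A1 and NEBL, at 23 to 110 counts per sample, are the values that depth limits most.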

Other observations

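The 7 AHR pathway genes lie on 7 different chromosomes, and the nearest tested protein-coding genes beside them were also read. Genes that overlap a member, such as PDCD6 at AHRR and RMDN2 at CYP1B1, were left out of this reading. AGR2, which encodes a protein disulfide isomerase common in secretory and breast cancer cells, ends 82.9 kb before the annotated start of AHR at 16916359. The RefSeq promoter window of AHR, from 17298402 to 17298701, lies inside the annotated gene and much farther from AGR2. AGR2 rose from 57 and 64 counts in shCON cells to 302 and 264 counts in shZDHHC15 cells. Its log2 fold change was 2.10 (standard error 0.2, adjusted p = 1.22e-06 by edgeR's quasi-likelihood test), while AHR itself was at -0.02. On the other side, SNX13, a sorting nexin gene 444.6 kb away, was higher by 0.90 (adjusted p = 4.01e-04). The genes beside NEBL moved apart, with CASC10 lower (205 and 171 counts against 60 and 69, log2 fold change -1.66, adjusted p = 1.22e-05) and PLXDC2 higher by 1.16 from 15 and 10 counts (adjusted p = 0.0424). CTSK, the cathepsin K gene 1.4 kb from ARNT, was higher by 0.66 (adjusted p = 0.0262), and SETDB1 on its other side was not called (log2 fold change 0.28, adjusted p = 0.074). CDC42EP3, before CYP1B1, was at -0.29 (adjusted p = 0.0205) and ATL2, after it, at -0.18 (adjusted p = 0.151), opposite in sign to CYP1B1. None of the 4 genes beside AHRR and CYP1A1 (SDHA, EXOC3, EDC3 and CSK) was called, and neither were SSR3 and LEKR1 beside TIPARP.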
